A study of Mus musculus with 11 samples.

Results

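Integrins are cell surface receptors made of 1 alpha and 1 beta subunit, and laminins are trimers of 1 alpha, 1 beta and 1 gamma chain that form the core sheet of basement membranes. The genes of both families were taken as every gene whose only symbol in the array annotation is that of an integrin alpha or beta subunit or of a laminin chain. This gave 34 genes of the 18194 on the array, 24 for integrins and 10 for laminins. Itga11 and Itgad were not analysed here.

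The alpha subunit largely sets what an integrin binds: laminins, collagens, proteins with the Arg-Gly-Asp (RGD) sequence such as fibronectin, or counter-receptors on other cells. Laminins with the alpha 1, alpha 2, alpha 4 and alpha 5 chains occur under epithelia and around muscle, nerve and vessels, and laminin with the alpha 3 and beta 3 chains anchors stratified epithelium through integrin alpha 6 beta 4. In the mandibular arch, laminin sheets lie between the covering epithelium and the neural crest mesenchyme, and later around the muscle fibres of the tongue.

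All RNA came from ICR mouse embryos, an outbred strain, and the labels name no transgene or treatment. Tissue was the distal (medial) piece of the mandibular arch or the remaining lateral piece. There was 1 array of medial and 1 of lateral tissue at E9.7, 3 of each at E10.5, 2 of medial tissue at E11.5 and 1 at E14.5, days after conception. The labels call the E14.5 tissue the anterior tongue, so that stage and tissue cannot be told apart there. Each stage was a pool of 40 embryos, and no array shows the spread between embryos. The p-values reflect how far arrays of 1 group differ, and that spread may be technical.

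Values are log2 signals after quantile normalization. The filter level is 4.86, the median of all values on the arrays (50th percentile), and a gene was tested if 2 or more of the 8 arrays from E10.5 and E11.5 were at or above it. The first medial replicates of E10.5 and of E11.5 were arrays of low signal: their medians before normalization were 2.37 and 2.47, against 5.20 to 5.73 on the other 9, and results that rest on them are also given without them. Clustering of the arrays on 45 probe sets for spiked-in controls gave 4 groups, named control-probe groups here, and values within them stand beside the results. The E14.5 array was alone in its control-probe group, so that this grouping and the E14.5 sample cannot be told apart. Levels of different genes cannot be compared on this scale, because each probe set has its own response. In bulk tissue, fewer cells of a type and less RNA per cell cannot be told apart.

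Of the 34 genes, 21 were tested. These were 4 of 4 RGD-binding alpha subunits, 2 of 3 laminin-binding, 1 of 3 collagen-binding, both of the alpha 4 and alpha 9 pair, 1 of 4 leukocyte alpha subunits and 4 of 8 beta subunits. Among laminin genes they were 4 of 5 alpha, 2 of 3 beta and 1 of 2 gamma chains. The 18 genes at the filter level on all 11 arrays were Itga2b, Itga3, Itga4, Itga5, Itga6, Itga8, Itga9, Itgav, Itgb1, Itgb5, Itgb7, Itgb8, Lama1, Lama2, Lama4, Lama5, Lamb1 and Lamc1. Their ranges over the arrays ran from 0.67 log2 units for Itga2b to 4.16 for Itga4. A further 7 genes, Itga10, Itgae, Itgam, Itgax, Itgb2, Itgb6 and Lamc3, stayed below the filter level on every array, at 2.48 to 4.71. They include Itgb2 with its leukocyte partners Itgam and Itgax.

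**Figure D1:**
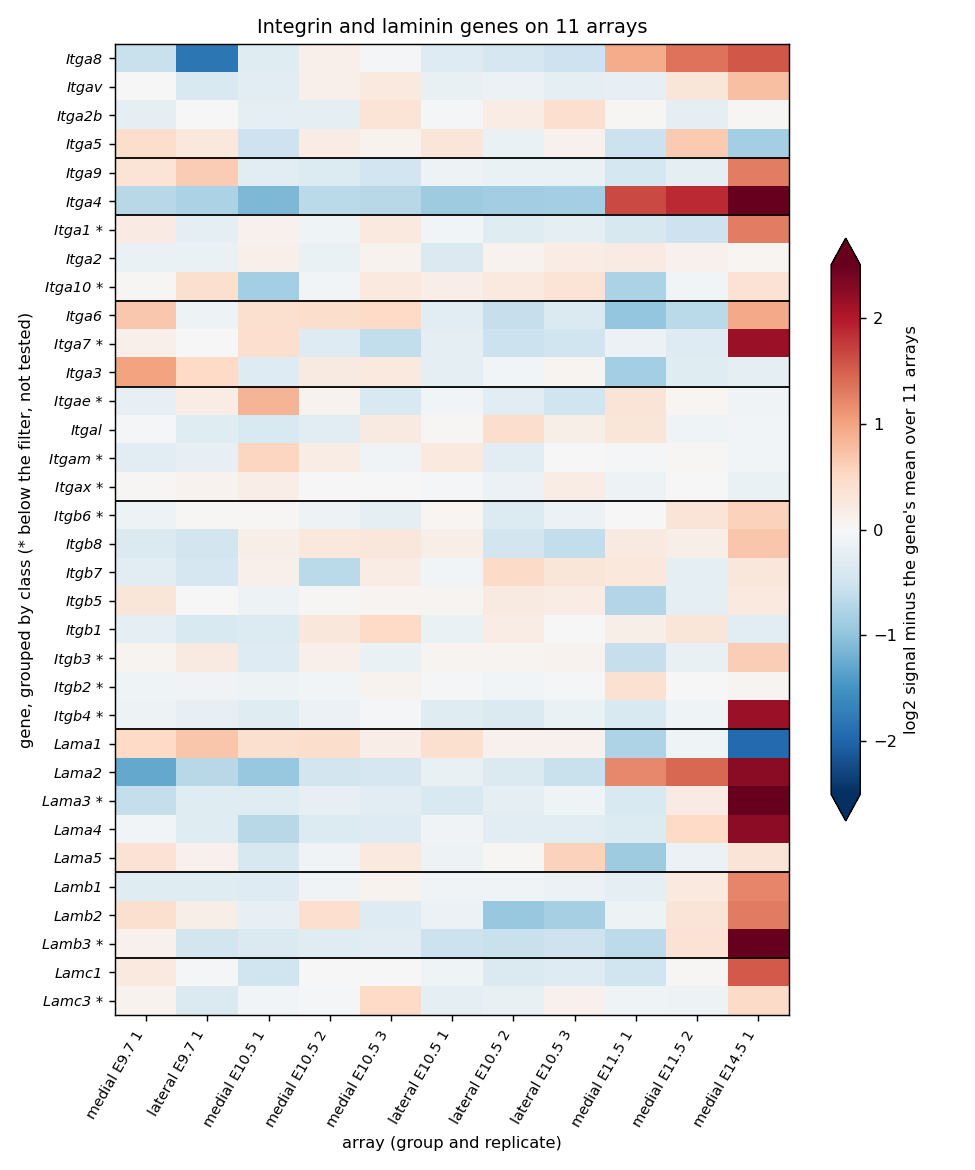
Log2 signal of each of the 34 genes (rows, grouped by class) on each of the 11 arrays (columns), minus the gene's mean over the arrays; colours are clipped at the ends of the bar and an asterisk marks the 13 genes that were not tested. Itga4, Itga8 and Lama2 are high on both E11.5 arrays, and 18 genes have their highest value on the single E14.5 array. The share of all genes on the array that are highest there was not counted.

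Between medial and lateral tissue at E10.5, the comparison that the series design names, Itga6 was higher in medial tissue and no other of the 21 genes was called. Itga6 is the alpha subunit that binds laminin with beta 1 or, in hemidesmosomes, with beta 4. The share called was 4.63% of all 11968 genes tested, and 1 of 21 is near that background (2.82% were higher in medial tissue and 1.80% lower). The median difference of the 21 genes was 0.05 log2 units, and that of all genes tested was -0.01.

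Itga6 gave log2 signals of 8.72, 8.76 and 8.82 on the 3 medial arrays and 8.04, 7.75 and 7.96 on the 3 lateral arrays at E10.5. Every medial array lay above every lateral one, and the medial array of low signal was close to the other two. The means were 8.77 ± 0.05 and 7.92 ± 0.15 (SD, n = 3 each), a difference of 0.85 ± 0.12 log2 units (SE), or 1.80-fold, with an adjusted p of 0.00435 (limma, Benjamini-Hochberg over all genes). Within control-probe group 1 (1 array on each side) the difference was 0.71, and within group 3 (1 medial and 2 lateral arrays) it was 0.97. The 2 probe sets of Itga6 gave 0.85 and 0.89. The call held without any 1 array of these groups, but on the values as deposited, where medial replicate 1 is unscaled, the difference was -0.13 (adjusted p = 0.919). At E9.7, with 1 array on each side and no test, Itga6 was at 8.99 in medial and 8.19 in lateral tissue.

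Epithelial markers moved with this difference: 9 of 16 were called higher in medial tissue and none lower, with a median of 0.73 (the median of all genes was -0.01). Their mean log2 level was 7.58 to 7.72 on the medial and 6.95 to 7.06 on the lateral E10.5 arrays, and none of the 16 was below the filter level in either group. Of 12 endothelial markers, 3 were called higher and none lower. Their mean level was 6.92 to 7.04 in medial and 6.55 to 6.61 in lateral tissue. The part of either cell type in the Itga6 difference was not tested.

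The other laminin-binding alpha subunit tested, Itga3, gave 0.12 ± 0.20 (adjusted p = 0.813). The main partner chain Itgb1 was at 8.74, 9.36 and 9.58 on the medial and 8.90, 9.25 and 9.08 on the lateral arrays, so the groups overlapped. The difference was 0.15 by this probe set, and 0.46 and 0.42 by its others at the filter level on all 11 arrays. The other beta partner of Itga6, Itgb4, was below the filter level on all arrays before E14.5.

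The count of 1 was 4 with the control-probe group as a fixed effect, which added Itga8, Itgav and Lamb2 (1254 of all genes called), and 6 with array weights, which added Itga8, Itgal, Itgb7, Itgb8 and Lamb2 (2833 of all genes). Among the 20 genes not called, differences ran from -0.35 to 0.60 with adjusted p between 0.176 and 0.999. The arrays of 6 of the 21 genes did not overlap between medial and lateral tissue, against 25.0% of all genes tested. Of these, Itga6, Itga8 and Itgb8 lay higher in medial tissue, and Itga9, Itgb5 and Lama4 lower.

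Itgb8, a partner of alpha v that takes part in activating TGF-beta, was at 6.06, 6.18 and 6.19 on the medial and 6.06, 5.45 and 5.30 on the lateral arrays. The difference was 0.54 ± 0.18 (adjusted p = 0.176), and it was 0.12 within control-probe group 1 and 0.81 within group 3. Lateral replicate 1 lay apart from the other lateral arrays here, and without it Itgb8 was called (adjusted p = 0.0158). Lamb2, the laminin beta chain of muscle and nerve basement membranes, was at 5.53, 6.15 and 5.41 in medial and 5.60, 4.79 and 4.92 in lateral tissue. Its groups overlapped, and the difference was 0.60 ± 0.26 (adjusted p = 0.306), with 0.56 within each of control-probe groups 1 and 3.

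Itga8, an RGD-binding subunit whose known ligands include nephronectin and tenascin C, was at 7.06, 7.5 and 7.34 on the medial and 7.04, 6.95 and 6.84 on the lateral arrays at E10.5. The difference of 0.35 ± 0.16 did not pass the test (adjusted p = 0.309), and it was 0.46 within control-probe group 1 and 0.44 within group 3. Itga9, a receptor for tenascin C and VCAM-1, was at 7.21, 7.16 and 7.01 in medial and 7.36, 7.32 and 7.33 in lateral tissue, a difference of -0.21 ± 0.11 (adjusted p = 0.390). The laminin alpha chains Lama1, Lama2, Lama4 and Lama5 had a median difference of -0.23, and none was called.

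**Figure D2:**
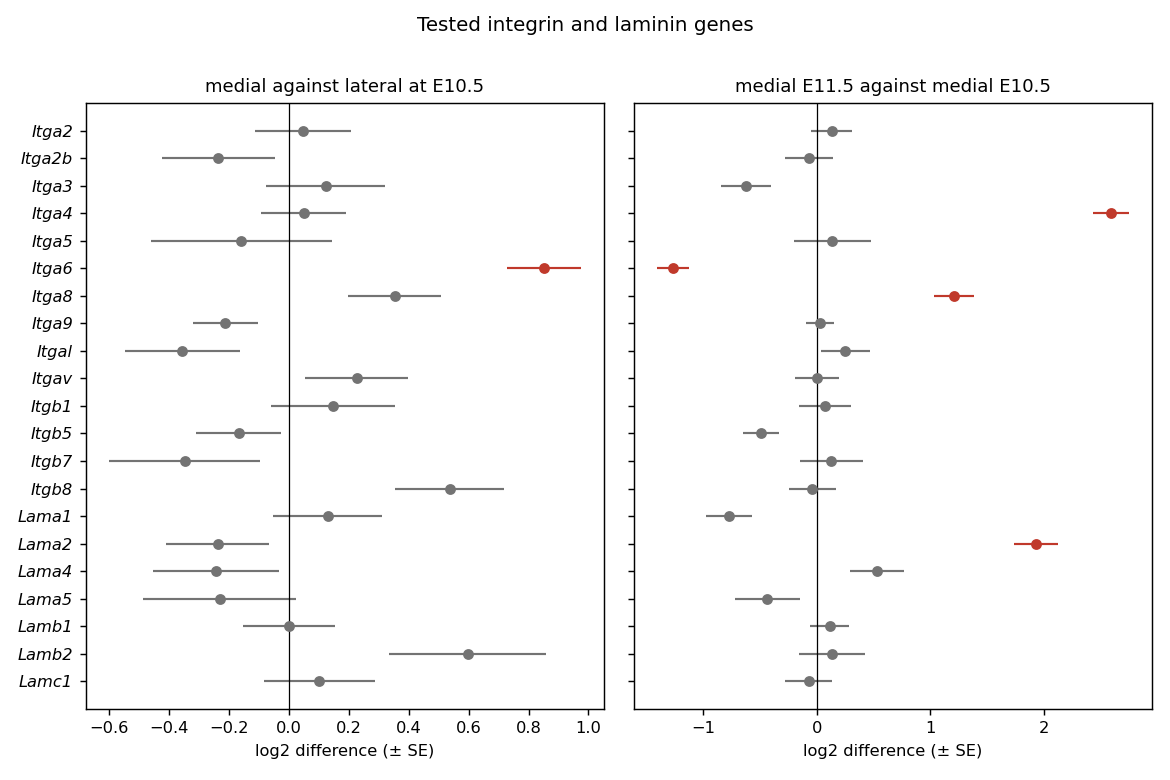
Log2 difference with its standard error for each of the 21 tested genes, medial minus lateral at E10.5 on the left and medial E11.5 minus medial E10.5 on the right; red points passed an adjusted p of 0.05. Itga6 is the only red point on the left at 0.85, and Itga4 lies farthest from 0 on the right at 2.59.

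The genes that work with these families were read from lists of basement membrane partners, ligands other than laminins, and adaptors. In this comparison 4.63% of all genes tested were called. Of 15 basement membrane partners tested, 2 rose from lateral to medial tissue and none fell, with a list median of 0.05. They were Frem1, a protein of the epithelial basement membrane, by 1.42 ± 0.16 (adjusted p = 0.00115), and the collagen-binding protein Sparc, by 0.99 ± 0.14 (adjusted p = 0.00339). The collagen IV chains Col4a1 and Col4a2 gave -0.02 and -0.11 and did not pass the test.

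Of 11 ligands tested, 3 were higher in medial tissue and 1 was lower, with a list median of 0.16. Periostin (Postn) was higher by 1.52 ± 0.17 (adjusted p = 0.00108), Vcam1, the counter-receptor of alpha 4 integrins, by 0.65 ± 0.11 (adjusted p = 0.00944), and tenascin C (Tnc) by 0.92 ± 0.19 (adjusted p = 0.0231). The matricellular protein Ccn2 differed by -2.69 ± 0.29 (adjusted p = 0.000941). Of 20 adaptors tested, 1 was higher, the laminin-integrin-associated tetraspanin Cd151, by 0.62 ± 0.13 (adjusted p = 0.0286). The adaptor list had a median of -0.07.

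In medial tissue between E10.5 and E11.5, Itga4, Lama2 and Itga8 rose and Itga6 fell. Itga4 pairs with beta 1 or beta 7 and binds VCAM-1 and fibronectin, and Lama2 is the laminin alpha chain of the muscle fibre basement membrane. These were 4 of the 21 genes, and 6.92% of all genes tested were called in this comparison. The 3 that rose compare with 4.32% of all genes, and the 1 that fell with 2.60%. The medians were 0.07 for the 21 genes and 0.003 for all. The comparison shares the medial E10.5 arrays with the one above, so its values for Itga6 are not independent of the medial to lateral difference.

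The promoters of the 3 genes that rose are shown because these genes moved together on the same arrays. Each window is from RefSeq (GRCm38.p6), runs 5′ to 3′ on the gene's strand from 250 bases before to 50 bases after the annotated start, and has matches to the motifs below in capitals. Itga4 is at chr2:79255176-79255475 on the plus strand, Itga8 at chr2:12301895-12302194 on the minus strand and Lama2 at chr10:27616893-27617192 on the minus strand.
Itga4: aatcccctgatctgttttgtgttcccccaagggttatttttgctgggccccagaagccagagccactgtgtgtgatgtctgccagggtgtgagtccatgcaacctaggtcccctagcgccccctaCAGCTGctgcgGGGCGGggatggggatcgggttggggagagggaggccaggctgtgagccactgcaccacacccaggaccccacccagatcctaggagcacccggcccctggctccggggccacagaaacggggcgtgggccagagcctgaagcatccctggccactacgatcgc
Itga8: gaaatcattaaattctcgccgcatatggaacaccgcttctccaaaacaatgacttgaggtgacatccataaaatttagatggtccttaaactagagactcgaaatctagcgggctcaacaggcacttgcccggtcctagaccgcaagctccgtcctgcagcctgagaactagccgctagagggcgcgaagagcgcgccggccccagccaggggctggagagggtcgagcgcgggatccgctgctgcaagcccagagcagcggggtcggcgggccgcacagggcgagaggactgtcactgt
Lama2: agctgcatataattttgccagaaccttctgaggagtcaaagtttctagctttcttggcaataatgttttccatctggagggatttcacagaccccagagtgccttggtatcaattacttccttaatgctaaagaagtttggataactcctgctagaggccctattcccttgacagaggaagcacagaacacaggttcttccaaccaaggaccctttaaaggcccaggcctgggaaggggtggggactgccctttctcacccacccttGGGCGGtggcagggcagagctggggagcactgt
Both strands were searched for the GC box GGGCGG, for the TATA box TATAAA, for CAGCTG, the E-box that myogenic factors bind, and for TGANTCA, an AP-1 site. Itga4 held 1 CAGCTG and 1 GGGCGG that did not overlap, Lama2 held 1 GGGCGG, and these letters were not in the Itga8 window. CAGCTG was in 16.3%, GGGCGG in 35.7%, TGANTCA in 7.81% and TATAAA in 13.6% of all 32851 windows of the same length. Promoters matched 22 of the 34 genes, with 25 windows, of which 8 held CAGCTG, 12 held GGGCGG, 3 held TGANTCA and none held TATAAA. These are matches of letters and not measured binding.

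Itga4 was at 5.42, 5.87 and 5.85 on the 3 medial arrays at E10.5 and at 8.18 and 8.41 on both E11.5 arrays. All E11.5 values lay more than 2 log2 units above all E10.5 values. The means were 5.71 ± 0.25 (SD, n = 3) and 8.30 ± 0.16 (SD, n = 2), a rise of 2.59 ± 0.16 (SE), or 6.01-fold (adjusted p = 2.96e-05, limma). Within control-probe group 1 (1 array on each side) the rise was 2.54, and between the 2 arrays of low signal, which form group 2, it was 2.77. The 4 probe sets of Itga4 that reached the filter level rose by 1.17 to 2.59. At earlier stages and in lateral tissue Itga4 was between 5.64 and 5.85, near its medial E10.5 level.

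Lama2 was at 5.42, 5.92 and 5.96 on the medial arrays at E10.5 and at 7.58 and 7.81 at E11.5. The groups did not overlap, and the means of 5.77 ± 0.30 (SD, n = 3) and 7.70 ± 0.16 (SD, n = 2) differed by 1.93 ± 0.19, or 3.81-fold (adjusted p = 0.000344). The rise was 1.89 within control-probe group 1 and 2.16 within group 2. Lama2 has 1 probe set here. In lateral tissue at E10.5 it was at 6.19, 6.0 and 5.82.

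Itga8 was at 7.06, 7.5 and 7.34 at E10.5 and at 8.30 and 8.72 at E11.5, again with no overlap. The means of 7.30 ± 0.22 (SD, n = 3) and 8.51 ± 0.30 (SD, n = 2) differed by 1.21 ± 0.17, or 2.31-fold (adjusted p = 0.00303). The within-group rises were 1.21 and 1.23, and the 2 probe sets gave 0.72 and 1.21.

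Itga6 was at 8.72, 8.76 and 8.82 at E10.5 and at 7.36 and 7.65 at E11.5. Both E11.5 values lay more than 1 log2 unit below the E10.5 values and below all lateral arrays. The means of 8.77 ± 0.05 (SD, n = 3) and 7.5 ± 0.20 (SD, n = 2) differed by -1.26 ± 0.14, or 2.40-fold (adjusted p = 0.000572). Within control-probe groups 1 and 2 the differences were -1.11 and -1.36, and the probe sets gave -1.44 and -1.26. All 4 calls held when any 1 array of these groups was left out and when both arrays of low signal were left out. On the values as deposited none was called (adjusted p = 0.882 each).

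**Figure D3:**
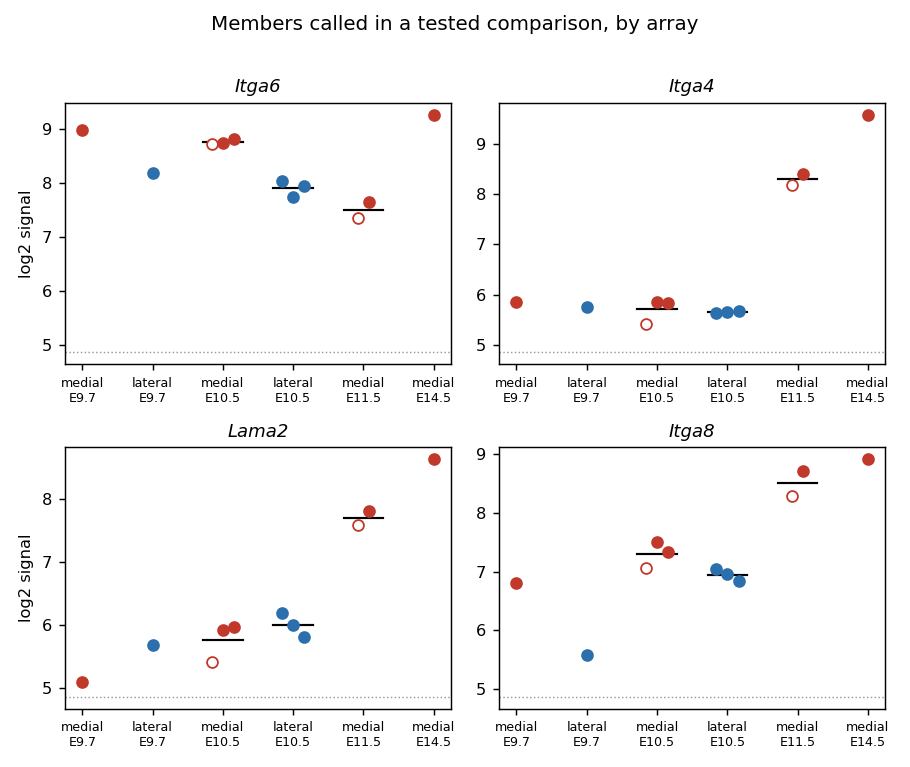
Log2 signal of Itga6, Itga4, Lama2 and Itga8 by group, 1 point per array, red for medial and blue for lateral tissue; open circles are the 2 arrays of low signal, bars are group means and the dotted line is the filter level of 4.86. Itga4, Lama2 and Itga8 step up at E11.5, and Itga6 is lower on both E11.5 arrays than on every other array.

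Markers of several cell types changed over the same day. Of 12 genes of differentiated muscle, 10 were called higher and none lower, with a median of 3.38, and their mean log2 level went from 4.53 to 4.75 on the E10.5 arrays to 7.41 to 8.0 on the E11.5 arrays. At E10.5, 5 of these 12 were below the filter level on all medial arrays, and at E11.5 none was. All 4 muscle precursor markers tested were higher (median 3.44), and the mean level of 5, with the untested Pax7, was 4.55 to 4.69 and then 7.58 to 7.61. Myf5 and Myod1 of the precursor markers were also below the filter level on all medial E10.5 arrays. These 2, and Myl1, Tnnt3, Ttn and Myh3 of differentiated muscle, were tested only because both E11.5 arrays reached that level. Such genes had to be higher at E11.5.

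Epithelial markers moved the other way, with 12 of 16 lower and 1 higher at E11.5 (median -0.83). Their mean level was 7.58 to 7.72 at E10.5 and 6.91 to 7.0 at E11.5, and all 16 were at the filter level in both groups. Of 7 markers of neural crest mesenchyme, 6 were lower and 1 higher (median -1.81), with mean levels of 9.42 to 9.66 and 7.77 to 7.89. Macrophage markers were higher for 3 of the 6 tested and lower for none (median 0.70), at a mean level over all 10 of 4.70 to 4.84 and then 5.16 to 5.18. Of 12 endothelial markers, 3 were lower and none higher (median -0.48), at a mean level of 6.92 to 7.04 and then 6.29 to 6.63. The part of these cell types in the changes of Itga4, Lama2, Itga8 and Itga6 was not tested.

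With the control-probe group as a fixed effect 8 genes were called, with Itga3, Itgb5, Lama1 and Lama4 added. Over all genes the calls rose as well, from 828 to 2182. The other 17 genes had differences from -0.77 to 0.53 between E10.5 and E11.5 and did not pass the test. The nearest was Lama1, the alpha chain of the early embryonic basement membrane, at 7.37, 7.40 and 7.13 at E10.5 and at 6.20 and 6.86 at E11.5. Its arrays did not overlap, and the difference was -0.77 ± 0.20 (adjusted p = 0.0591), with -0.53 within control-probe group 1 and -1.18 within group 2. Itgb5, a vitronectin receptor subunit that pairs with alpha v, was at 9.50, 9.65 and 9.69 and then at 8.88 and 9.37, a difference of -0.49 ± 0.16 (adjusted p = 0.125).

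Itga3 gave -0.62 ± 0.22 (adjusted p = 0.162), and the vascular laminin chain Lama4 gave 0.53 ± 0.23 (adjusted p = 0.280), with overlapping arrays for both. The arrays of 6 of the 21 genes did not overlap between the stages, 3 higher and 3 lower at E11.5, against 28.4% of all genes tested. Of the 4 beta subunits, 2 laminin beta chains and 1 laminin gamma chain tested, none was called in either tested comparison. With 4.63% and 6.92% of all genes called, no call among so few genes is near the background. The chains with which the 4 called genes assemble include Itgb1, Lamb1, Lamb2 and Lamc1. Itgb1 was at 8.74, 9.36 and 9.58 at E10.5 and at 9.22 and 9.37 at E11.5, within the E10.5 range.

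Of the 15 basement membrane partners tested between E10.5 and E11.5, 1 was higher and 1 lower, with a median of -0.06. The share called among all genes tested was 6.92%. Sparc was higher by 0.81 ± 0.15 (adjusted p = 0.0136), and Col18a1, the collagen XVIII chain, differed by -1.23 ± 0.23 (adjusted p = 0.0122). Of the 11 ligands, 2 were higher and 2 lower (median 0.02). Postn was higher by 2.01 ± 0.19 (adjusted p = 0.000246) and Tnc by 1.27 ± 0.21 (adjusted p = 0.00627). Nephronectin (Npnt), the main ligand of integrin alpha 8 beta 1 in the kidney, differed by -1.15 ± 0.21 (adjusted p = 0.0102), the direction opposite to that of Itga8. E-cadherin (Cdh1), which integrin alpha E beta 7 binds and which is also an epithelial marker, differed by -1.14 ± 0.26 (adjusted p = 0.0325). Of the 20 adaptors, none was higher and 1 was lower, Parvb, a partner of integrin-linked kinase, by -0.96 ± 0.23 (adjusted p = 0.0400), and the list median was 0.04.

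Comparisons with the E9.7 arrays have 1 array on a side and no test. A gene was counted there when the lone array was 1 log2 unit (2-fold) or more above or below all arrays of the opposing group, among genes at the filter level on all arrays of at least 1 side. Between medial and lateral tissue at E9.7, 1 of 20 genes was counted, against 1.76% of all genes considered (1.09% higher and 0.667% lower). It was Itga8, at 6.80 in medial and 5.57 in lateral tissue, a difference of 1.23, with 1.07 and 1.23 for its 2 probe sets. The other 19 ranged from -0.59 for Lama2 to 0.80 for Itga6.

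From E9.7 to E10.5 in lateral tissue, Itga8 was again the 1 gene counted, of 20, against 1.36% of all genes considered (0.953% higher and 0.410% lower). It went from 5.57 to 7.04, 6.95 and 6.84, a difference of 1.38. With each array centred on its median in place of quantile normalization it was not counted, and the median of all genes moved by -0.37 with the share of counted genes that were higher going from 69.9% to 43%. In medial tissue none of 19 genes was counted, against 1.01% of all genes considered (0.634% higher and 0.375% lower), and the range was -0.96 for Itga3 to 0.67 for Lama2. The 2 stage comparisons and the medial to lateral one at E9.7 share arrays, and the lateral E9.7 array holds the lowest Itga8 value of all 11, so that 1 array decides both counts.

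In medial tissue from E11.5 to the E14.5 tongue sample, 11 genes of both families were counted. They include Lamb3, Lama3, Itgb4 and Itga6 of the epithelial anchoring complex and the muscle subunit Itga7. Of 26 genes considered, 10 were higher and 1 was lower, and 14.9% of all genes considered were counted in either direction (11.2% higher and 3.68% lower). Of the 26, 6 were considered only because they reached the filter level at E14.5, and such genes had to differ. Of the 20 genes already at the filter level on both E11.5 arrays, 6 were counted, 5 higher and 1 lower, against 1266 of 10996 of all genes so chosen. These are differences between 1 array and 2, with no replicate of the E14.5 sample.

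The laminin chain Lamb3 was at 3.52 and 4.54 on the E11.5 arrays and at 7.36 on the E14.5 array. Its partner chain Lama3 was at 3.52 and 4.10 and then at 6.45, and Itgb4, the beta subunit that joins alpha 6 in hemidesmosomes, was at 4.44 and 4.71 and then at 6.98. The 3 genes were below the filter level on all 10 other arrays, so the differences of 3.33, 2.64 and 2.41 log2 units start from signals below that level. The alpha subunit of the same complex, Itga6, was at 7.36 and 7.65 and then at 9.28, a difference of 1.77, and 1.35 by its other probe set. Its E14.5 value was the highest of all arrays, above the medial E9.7 value of 8.99. Col17a1, the transmembrane collagen of hemidesmosomes, was at a mean of 4.71 at E11.5 and at 9.44 at E14.5, and plectin (Plec), which ties beta 4 to keratin filaments, differed by 1.60.

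Itga7, the laminin-binding subunit of muscle fibres, was at 4.19 and 4.01 at E11.5 and at 6.50 at E14.5, a difference of 2.40. It was below the filter level on all earlier arrays. Itga1, a collagen-binding subunit, was likewise below it and went from 4.05 and 3.93 to 5.73. Lama2, whose product Itga7 binds, was at 7.58 and 7.81 and then at 8.62, a difference of 0.93 that was not counted. Itgb1bp2 (melusin), a muscle protein that binds the beta 1 tail, was at a mean of 4.63 at E11.5 and at 9.87 at E14.5.

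Lama4 was at 6.90 and 7.75 at E11.5 and at 9.49 at E14.5. Lamc1, the gamma chain shared by most laminins, was at 7.08 and 7.60 and then at 9.11. Itga9 was at 7.05 and 7.26 and then at 8.78, and Itga4 at 8.18 and 8.41 and then at 9.58. All 4 lay above every other array at E14.5, but the probe sets of Lama4, Lamc1 and Itga4 did not all move in the same direction.

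Lama1 was the 1 gene counted lower, at 6.20 and 6.86 at E11.5 and at 5.03 at E14.5, a difference of -1.50. Its E14.5 value was the lowest of all 11 arrays, which held 7.06 to 7.66 at E9.7 and E10.5. With arrays centred on their medians, or with the values as deposited, Lama1 was not counted. Centring moved the median of all genes by 0.32 between E11.5 and E14.5, and the share of counted genes that were higher went from 75.3% to 89.1% (99.6% as deposited).

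**Figure D4:**
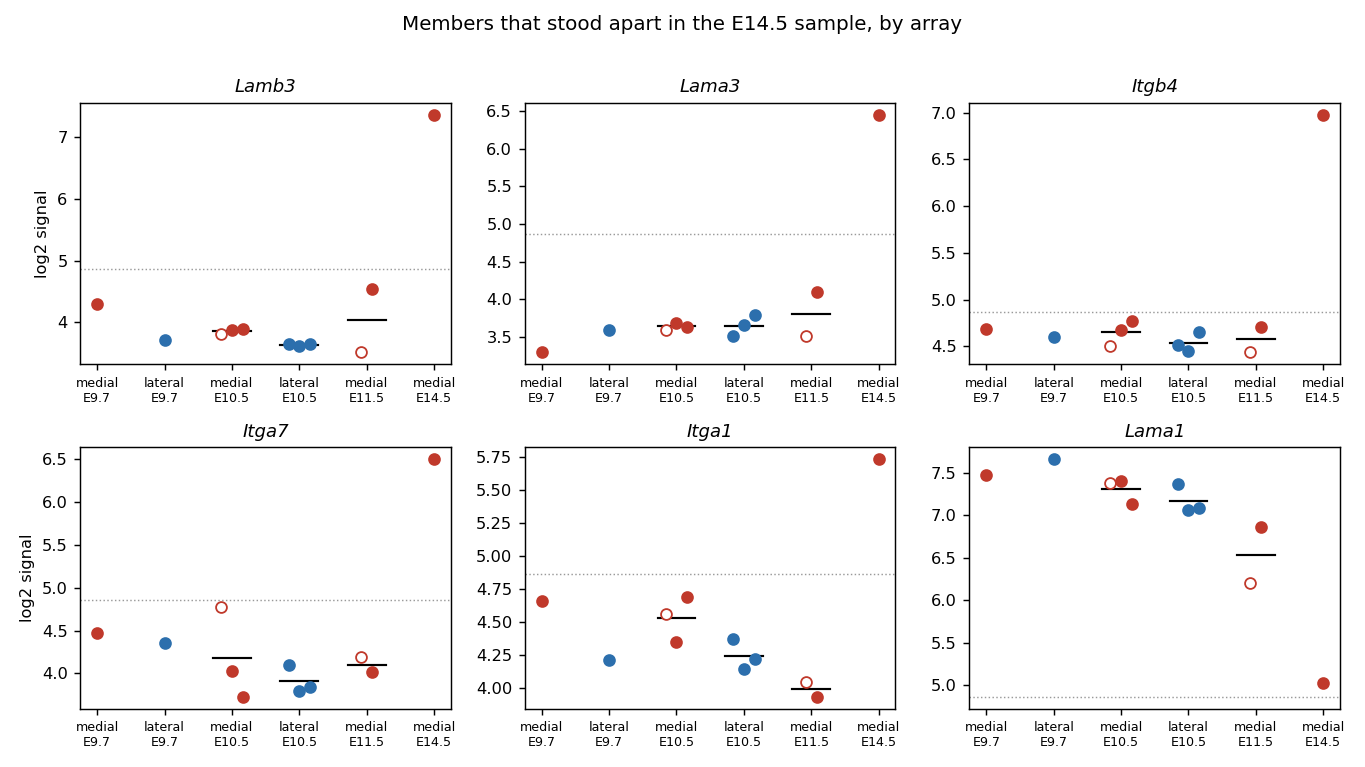
Log2 signal of Lamb3, Lama3, Itgb4, Itga7, Itga1 and Lama1 by group, 1 point per array, red for medial and blue for lateral tissue; open circles are the arrays of low signal, bars are group means, and the dotted line is the filter level of 4.86. The first 5 genes cross the filter level on the E14.5 array alone, and Lama1 has its lowest value there.

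Probe sets of the same gene disagreed most in the E14.5 comparison. Those of Lamc1 gave 1.77 and -1.71, those of Lama4 2.17 and -0.72, and the 4 of Itga4 ran from -0.91 to 1.28. For Lamb1, which was not counted at 1.22, the 3 probe sets ran from -2.13 to 1.46. Those of Itga6 (1.35 and 1.77), of Itga9 (0.67 to 1.62) and of Itgb5 (0.52 to 0.93) moved alike. Among other genes not counted, the 2 probe sets of Itga8 gave 0.41 and -0.76, and the 3 of Itga3 ran from -0.58 to 0.35. Those of Itgav at the filter level ran from -1.60 to 0.72. The directions of Lamc1, Lama4, Itga4, Lamb1, Itga8, Itga3 and Itgav at E14.5 therefore depend on the probe set, which was the brightest for each gene. The Lama4 probe set at -0.72 and the Itga4 probe set at -0.91 reached the filter level on 1 array only. Those of Itga4 at that level on all 11 arrays gave 1.28 and 0.77, and 1 at it on 3 arrays gave -0.11. With the mean of the probe sets, 6 genes were counted, Itga6, Itga7, Itgb4, Lama3 and Lamb3 higher and Lama1 lower.

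**Figure D5:**
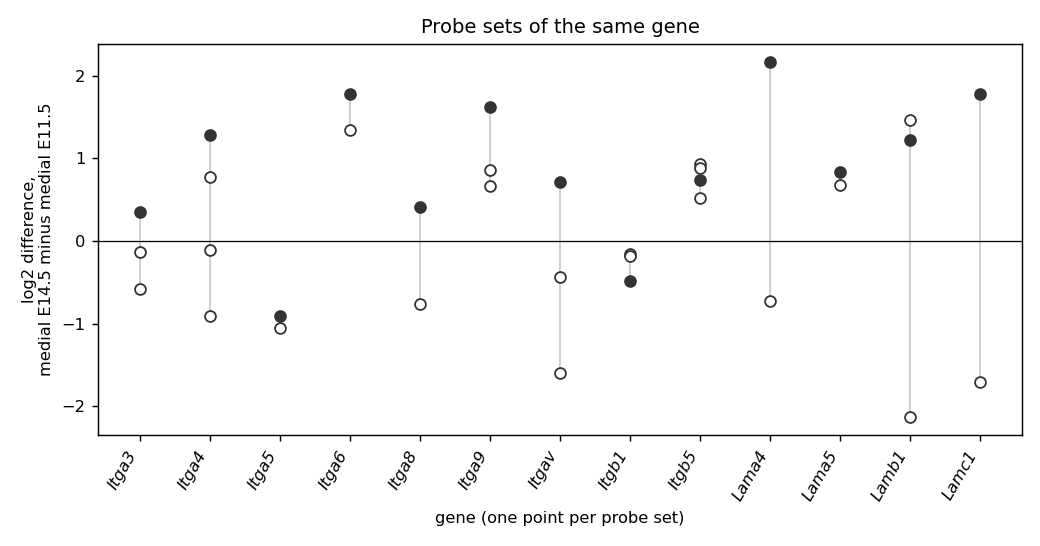
Log2 difference, medial E14.5 minus the mean of medial E11.5, for each probe set of the genes with several probe sets at the filter level; filled points are the probe sets used elsewhere. The pairs of Lamc1 and Lama4 lie on opposite sides of 0, while both points of Itga6 lie above 1.

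Without medial E11.5 replicate 1, 12 genes were counted, with Itga5 added, and without replicate 2, 16 were, with Itgb3, Lama2, Lama5, Lamb1 and Lamb2 added. Over all genes the count likewise went from 1828 to 2192 and 2664. The 15 genes not counted ranged from -0.91 for the fibronectin receptor subunit Itga5 to 1.22 for Lamb1. Lamb2 was at 5.61 and 6.06 and then at 7.03, just short of the 1 log2 unit gap. Of the leukocyte subunits none was considered, and Itgb2, Itgam and Itgax stayed below the filter level at E14.5. Macrophage markers were higher for 4 of 8 considered, with a mean level of 5.16 to 5.18 at E11.5 and 6.08 at E14.5. Of these 4, Ptprc was considered only because it reached the filter level at E14.5.

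All 12 differentiated muscle markers were counted higher at E14.5 (median 4.18), at a mean level of 11.7 against 7.41 to 8.0. Of 16 epithelial markers, 9 were higher and none lower (median 1.25), at a mean level of 8.65 against 6.91 to 7.0, with Krt14 and Krt5, keratins of basal stratified epithelium, higher by 5.15 and 4.51. The median of all genes considered was 0.10. Neuron markers were higher for 3 of 6 (median 1.28) and markers of Schwann cells and glia for 2 of 4 (median 1.31), while red cell markers were lower for 4 of 5 (median -1.60) and cartilage markers for 2 of 4 (median -1.41). Of the genes counted, Stmn2, Elavl4, Fabp7 and Foxd3 were considered only because they reached the filter level at E14.5. Such genes had to lie above at least 1 E11.5 array. The glial marker Sox10, at that level on both E11.5 arrays, was at 6.15 and 6.01 and then at 5.93. Erbb3 was at 8.84 and 9.31 and then at 9.99. The part of these cell types in the values of the 11 counted genes was not tested.

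Of all genes considered, 11.2% were counted higher at E14.5 and 3.68% lower. Of the 15 basement membrane partners, 2 were counted higher and none lower (median 0.69), which is near those shares. They were Col4a5, by 2.74, and the dystroglycan gene Dag1, a laminin receptor, by 1.28. Of 12 ligands, 6 were higher and none lower (median 1.24), led by Tnc at 3.78 and Npnt at 2.89. Npnt had its lowest medial mean at E11.5, while Tnc was higher at each of the 2 later stages. Of 21 adaptors, 4 were higher (Itgb1bp2, Col17a1, Plec and paxillin, Pxn) and 1 was lower, Lims1, by -2.49, with a median of 0.84. The ligand Icam1 and the adaptors Itgb1bp2 and Col17a1 were considered only because they reached the filter level at E14.5.

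Itgav, the alpha v subunit that pairs with several beta chains, ran from 9.34 on the lateral E9.7 array to 10.47 at E14.5, and its other 2 probe sets at the filter level gave -1.60 and -0.44 at E14.5. Lamb1, the beta chain of most early laminins, was between 9.83 and 10.40 on the 10 arrays before E14.5 and at 11.38 there. Itga5 ran from 6.12 at E14.5 to 7.61 on medial E11.5 replicate 2, while the other E11.5 array was at 6.43, so its E11.5 arrays spanned most of that range.

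Lama5, the most widespread laminin alpha chain of epithelia, ran from 5.99 on medial E11.5 replicate 1 to 7.46 on lateral E10.5 replicate 3. Its difference was -0.23 ± 0.26 between medial and lateral tissue (adjusted p = 0.718) and -0.44 ± 0.29 between the stages (adjusted p = 0.517). Itgb7, a partner of alpha 4 and alpha E, was between 5.23 and 6.37, and the platelet subunit Itga2b between 6.38 and 7.05. Itga2, a collagen receptor subunit, stayed close to the filter level at 4.50 to 5.07, and Itgal, the alpha subunit of the leukocyte receptor LFA-1, reached it on 2 arrays only.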

How the data were processed

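The 11 Affymetrix arrays held 45101 probe sets each and measured RNA of mandibular arch tissue. Per the labels' protocols, RNA was purified on columns and 3 ug of total RNA was made into biotinylated cRNA. Per the submitters' processing notes, the deposited log2 values came from Affymetrix Expression Console 1.1. Its summary method is not given in the sources used here, and the log base was inferred from the range of the values.

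The deposited values were quantile normalized across the 11 arrays. Probe sets with 1 gene symbol (34958) were kept, with 932 of several and 9211 of none left out, and each gene took its brightest probe set. Symbols were updated through RefSeq gene names by Entrez ID for 34754 probe sets. Comparisons with replicates used limma 3.58.1 (R 4.3.3) with a mean for each of 6 groups, 5 residual degrees of freedom and Benjamini-Hochberg adjustment over 11968 genes, called at an adjusted p under 0.05. Precision is limited by the number of arrays. The procedure was tested on simulated data.

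The genes, the gene and marker lists and the grouping of arrays by control probes were chosen with earlier results of these data known. Genes called or counted are given with their values on the arrays compared. Of the others, some with values were chosen after these were seen and the rest are given by range. Other lists are given by up to 4 called genes, or in untested comparisons by their leading genes, a choice made after the values were seen. Alternatives were other scalings, filters, probe set summaries, variance models and array weights, a replicate block, and leaving out arrays.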

Additional observations from a re-analysis of the deposited data

Results flagged for a closer look

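The arrays of Itgb5 and Lama4 lay on opposite sides in the same contrast at E9.7 and E10.5. For Itgb5, medial minus lateral was 0.30 log2 units at E9.7 and -0.17 at E10.5. Both E9.7 arrays were in control-probe group 1. Within that group the E10.5 difference was -0.04, and within group 3 it was -0.14. With 1 array of each tissue, values at E9.7 cannot overlap. At E10.5 the arrays of 25.0% of all genes tested did not overlap, and the share with such opposite signs was not counted. The change of Itgb5 from E9.7 to E10.5 was -0.31 in medial and 0.16 in lateral tissue. Within control-probe group 1 the changes of Itgb5 were -0.27 and 0.07. Its 4 probe sets gave -0.04 to 0.20 in lateral tissue. For Lama4, medial minus lateral was 0.24 at E9.7 and -0.24 at E10.5, and its change from E9.7 to E10.5 was -0.39 in medial and 0.10 in lateral tissue. Its E10.5 difference was -0.26 within control-probe group 1 and -0.05 within group 3. Within group 1 the changes of Lama4 were -0.27 and 0.22. No difference from the E9.7 arrays was tested, since E9.7 has 1 array of each tissue. At E10.5 neither gene was called between medial and lateral tissue (limma, adjusted p = 0.622 for Itgb5 and 0.634 for Lama4). The pairs of contrasts use the same 8 arrays.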

How the results depend on the processing

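On the values as deposited, 0 genes of both families were called in either tested comparison (2 and 1 of all genes), and medial minus lateral at E10.5 had the opposite sign for Itga6 (-0.13), Itga8 (-0.70), Itgb8 (-0.63) and Lamb2 (-0.55), as did E11.5 minus E10.5 for Lama4 (-0.15). At the same scaling the medians of all genes moved by -1.02 and -0.66. Between medial and lateral tissue of E10.5 the count was 6 with array weights (2833 of all genes), 4 with the control-probe group as a fixed effect (1254 of all genes), and 1 to 2 when 1 array was left out. Over all genes the 554 calls became 358 with arrays centred on their medians and 313 and 308 without lateral replicates 2 and 3. For E11.5 against E10.5 the count was 8 with the control-probe group as a fixed effect (2182 of all genes) and 4 to 6 when 1 array was left out. Over all genes the 828 calls became 455 when centred, 482 with the groups compared alone, and 544 and 515 without E11.5 replicates 1 and 2. From E9.7 to E10.5 centring gave 0 genes in lateral tissue, and in medial tissue it moved the median of all genes by -0.27 and the share of higher genes from 62.8% to 40.2%. For E14.5 against E11.5 the count was 6 with the mean of the probe sets, 13 when centred, and 12 to 16 when 1 array was left out, where over all genes 1828 became 1541, 2346, and 2192 to 2664. The replicate number as a block gave counts of 1 and 4, and changed no call of these genes. Over all genes it gave 779 and 868 calls. Arrays of the same number did not deviate together in all pairs (correlations of 0.128, -0.294 and 0.478 between medial and lateral E10.5 arrays, and 0.59 and 0.389 between E10.5 and E11.5), and the labels do not say that a number marks a shared sample. Medial E10.5 and E11.5 arrays of the same number also share a control-probe group, as do medial and lateral E10.5 replicate 3. The causes were not tested. Signals below the filter level limit what can be said of 13 genes before E14.5.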
